A study of Mus musculus with 4 samples.

Results

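Serum amyloid A proteins, orosomucoids, lipocalin 2, haptoglobin and hemopexin are plasma proteins that the liver secretes in larger amounts during the acute-phase response. The genes described here were the 10 mouse genes Saa1, Saa2, Saa3, Saa4, Orm1, Orm2, Orm3, Lcn2, Hp and Hpx, chosen by symbol. They were read by 12 probe sets, all those whose single annotated symbol is one of these genes, among 45101 on the array. With several probe sets, the one of highest mean log2 signal over the 4 arrays stood for the gene. All 10 genes lay above the expression filter, which kept 11749 of 18193 genes.

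Liver RNA had been hybridised to 4 Affymetrix expression arrays, 1 for each of 4 male mice aged 9 months that were fed chow and received no intervention. In AB6F1 (n = 2 mice) the dam was of strain AJ and the sire of strain B6. In B6AF1 (n = 2 mice) the strains of dam and sire were exchanged. All 4 mice were thus first-generation hybrids of the same inbred strains, and the crosses differed in which strain was the mother. The X chromosome and mitochondria came from the dam's strain, the Y chromosome came from the sire's strain, and the parental origin of imprinted alleles was swapped. All 10 genes are autosomal, on chromosomes 2, 4, 7 and 8, so that mice of both crosses carry 1 allele from each strain. The comparison asks which transcripts differ with the direction of the cross, in a series on nonalcoholic fatty liver disease. Differences are log2 signal in AB6F1 minus log2 signal in B6AF1. The samples were whole liver slices, in which fewer cells of a type and less RNA per cell cannot be told apart. The source identifiers of each cross form a block of their own, and cross and handling cannot be told apart either. The liver marker Alb, albumin, had signals of 40788 and 38514 in AB6F1, against 40357 and 48625 in B6AF1. Across the tested genes, log2 signals of any 2 arrays had a Pearson correlation of at least 0.961. The number of arrays limits precision: with 2 mice in each cross, the smallest p that an exact two-sided permutation test of 1 gene can give is 0.333.

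In the acute-phase response, macrophages and other cells release interleukin-1, tumour necrosis factor and interleukin-6, and hepatocytes answer through NF-kappa-B, C/EBP factors and STAT3. In mice, Saa1 and Saa2 encode the inducible serum amyloid A of hepatocytes, Saa3 is induced in macrophages and adipocytes as well, and Saa4 encodes a constitutive form; the proteins travel on high-density lipoprotein. The Orm genes encode alpha-1-acid glycoprotein, which carries lipophilic ligands in plasma. Lcn2 binds bacterial iron siderophores and is made by hepatocytes, neutrophils and macrophages. Hp captures free haemoglobin and Hpx captures free haem.

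Saa1, Saa2, Orm2, Orm3 and Lcn2 had higher signals on both AB6F1 arrays than on both B6AF1 arrays, with log2 differences from 1.89 to 3.26. Of these, Saa2 rose by the test over all genes (7.88-fold, limma adjusted p = 0.00828). Saa1 and Saa2 are counted here as separate genes, although their probe sets may not tell them apart, as described below. The constitutive Saa4 and the acute-phase genes Saa3, Hp and Hpx had log2 differences between -0.07 and 0.24, with arrays of the crosses overlapping for each of them. Orm1, also an acute-phase gene, was at 0.32. Among the 10 genes, 1 passed at a limma adjusted p under 0.05, against 0.213% of all tested genes (0.136% higher and 0.0766% lower). At an unadjusted limma p under 0.05 there were 5 of 10, all higher, against 9.72% of all tested genes in either direction and 5.84% higher. The log2 difference was above 0 for 8 of 10, against 53.5% of all tested genes. Both AB6F1 arrays lay above both B6AF1 arrays for 6 of 10, against 22.5% of all tested genes, and 5 of 10 had a log2 difference above 1, against 3.27%. The median log2 difference was 1.10 over the 10 genes and 0.02 over all tested genes. The genes were chosen with earlier results of these data known, so these counts describe them and are not tested.

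**Figure D1:**
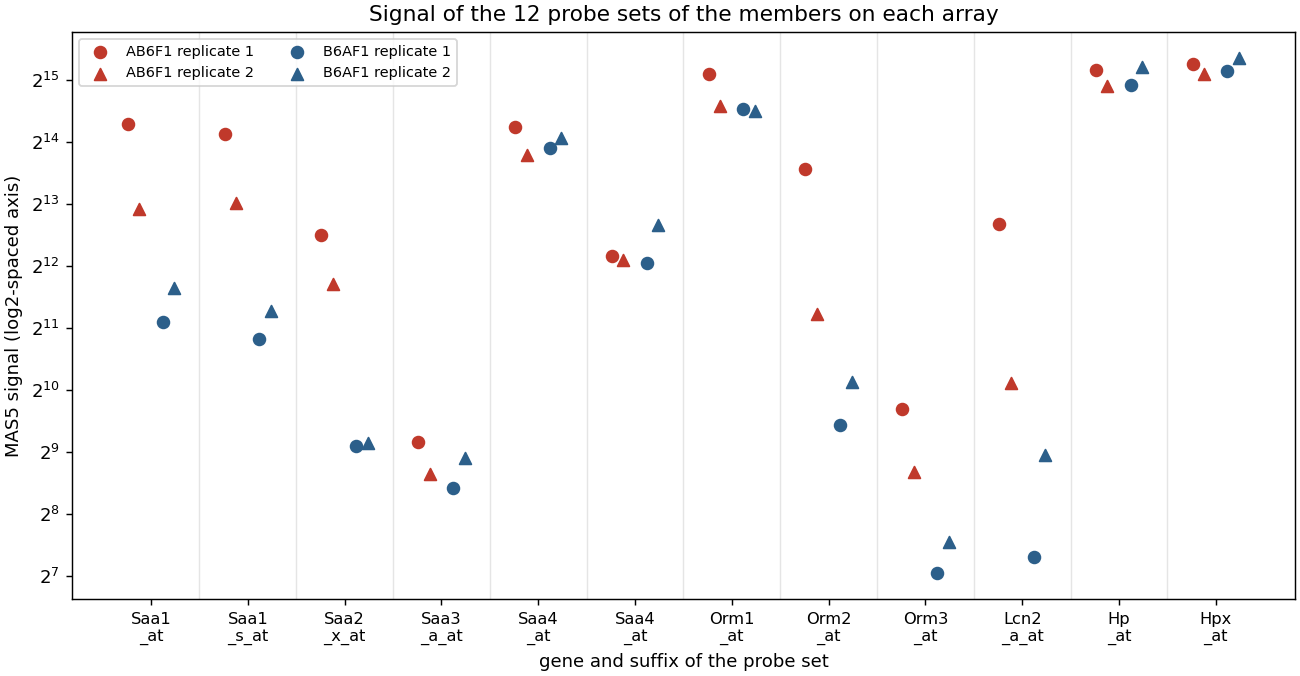
Signal of each of the 12 probe sets (columns, with the suffix of the probe set) on each array, on a log2-spaced axis; red marks are AB6F1 mice and blue marks are B6AF1 mice, with circles for replicate 1 and triangles for replicate 2. Saa1, Saa2, Orm2, Orm3 and Lcn2 have both red marks above both blue marks, whereas Saa3, Saa4, Hp and Hpx overlap; heights of different columns are not comparable.

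The sequences shown first are those upstream of Saa1 and Saa2, since this neighbouring pair is nearly identical there and its probe sets are hard to separate. Each is the 250 bases before the annotated start of the gene, from RefSeq on build GRCm38.p6 of the reference strain C57BL/6J, printed 5′ to 3′. Capitals mark matches, on either strand, to short motifs, with N for any base. The C/EBP motif was TTNNGNAA, the NF-kappa-B motif was GGNNNTTCC, the STAT motif was TTCNNNGAA and the HNF1 motif, one arm of the full site, was GTTAATNAT. The interleukin-6 response motif was CTGGGAA. The sixth motif searched for in each window was the core of the TATA box, written TATAAA.
Saa1, GRCm38.p6 chr7:46742981-46743230 (minus strand): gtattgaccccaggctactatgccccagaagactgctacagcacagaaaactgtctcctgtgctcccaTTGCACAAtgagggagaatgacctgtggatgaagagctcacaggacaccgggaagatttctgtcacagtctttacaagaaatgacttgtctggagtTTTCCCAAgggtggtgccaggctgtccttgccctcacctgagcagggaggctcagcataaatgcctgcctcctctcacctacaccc
Saa2, GRCm38.p6 chr7:46751583-46751832 (plus strand): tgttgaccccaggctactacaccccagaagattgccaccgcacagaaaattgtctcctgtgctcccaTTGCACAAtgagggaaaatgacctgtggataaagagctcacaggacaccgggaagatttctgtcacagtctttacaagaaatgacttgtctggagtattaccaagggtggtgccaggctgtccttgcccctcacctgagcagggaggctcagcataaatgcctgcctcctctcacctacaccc

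The 2 windows were identical in 238 of 251 aligned columns, or 94.8%. Both hold a C/EBP match with the letters TTGCACAA, from -182 to -175 in Saa1 and from -183 to -176 in Saa2, counted back from the start with -1 beside it. Saa1 also holds a second C/EBP match, TTTCCCAA from -86 to -79, which the Saa2 window lacks. Neither window holds an NF-kappa-B match. A C/EBP match was found in 36.9% and an NF-kappa-B match in 15.7% of 32841 promoter windows of this length, so that such matches are common. No window was available for Orm1 and Hp. All 8 other genes held a C/EBP match, Hpx with its difference near 0 included. No match to the STAT, interleukin-6 response or HNF1 letters was found in the windows of the 8 genes that the table holds, and 7.02%, 9.1% and 0.737% of all windows had one. All motif letters were chosen after these windows had been seen, and the NF-kappa-B result depends on them. Of 4 NF-kappa-B forms tried, the one printed above matched only Saa3 of the 8 genes and a stricter one with GGG at its start matched none (4.65% of all windows). A form with 4 free bases matched only Saa1 (15.2%), and one with a single G at its start, tried because it matches Saa1, also matched Saa3 and Orm2 (17.0%). For HNF1 both a form of 1 arm and the full site of both arms (0.00913% of all windows) matched none of the 8, so that nothing is read from a match or its absence. A match describes letters in the reference strain and does not show a binding site. The AJ allele was not used here.

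Saa1 and Saa2 lie beside each other on chromosome 7, in the order Saa3, Saa4, Saa1 and Saa2 among protein-coding genes. Saa2 had signals of 5786 and 3338 in AB6F1 against 549 and 566.3 in B6AF1. Even the lower AB6F1 array was 5.90 times the higher B6AF1 array, and the B6AF1 mice were almost alike. The log2 difference was 2.98 ± 0.25 (SE, n = 2 in each cross; limma adjusted p = 0.00828), the ninth smallest limma p among the 11749 genes. This call was lost without B6AF1 replicate 1 (limma adjusted p = 0.169), without B6AF1 replicate 2 (0.226) and when variance moderation ignored the trend with intensity (0.324), while the log2 difference stayed between 2.58 and 3.38 over all alternatives.

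Saa1 was read by a pair of probe sets. The brighter one, of suffix _at, had signals of 20005 and 7701 in AB6F1, against 2182 and 3186 in B6AF1. The AB6F1 mice differed 2.60-fold from one another, and the log2 difference of 2.23 ± 0.41 (SE, n = 2 in each cross) did not pass (limma adjusted p = 0.152). When each array was left out in turn, the log2 difference ranged from 1.55 (AB6F1 replicate 1 omitted) to 2.92 (AB6F1 replicate 2 omitted). With B6AF1 replicate 1 omitted the value was 1.96, and with B6AF1 replicate 2 omitted 2.51. Each of these fits had 1 mouse in a cross, so the spread within that cross was not measured.

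The other probe set, of suffix _s_at, had signals of 17881 and 8285 in AB6F1, against 1815 and 2477 in B6AF1. In a fit of single probe sets its log2 difference was 2.52 ± 0.33 (SE; limma adjusted p = 0.0513). The annotation names it Saa1, but the transcript accession it gives belongs to Saa2 in RefSeq, the same accession as that of the Saa2 probe set. Assigned by that accession, it would be the brighter probe set of Saa2 (mean log2 signal 12.3, against 10.6) and stand for that gene. In the fit of single probe sets it did not pass. RefSeq also lists Saa1 as a synonym of Saa2 and Saa2 as a synonym of Saa1. Suffixes _s_at and _x_at mark probe sets that can bind several related transcripts, and the only Saa2 probe set, of suffix _x_at, is of that kind. Signals of Saa1 and Saa2 are therefore uncertain as readings of 1 gene each. All 3 probe sets had both AB6F1 arrays above both B6AF1 arrays.

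Saa3 and Saa4 lie on the other side of Saa1 in the cluster and had log2 differences near 0. Saa3, the form also induced in macrophages and adipocytes, had signals of 573.7 and 398.5 in AB6F1, against 341.8 and 476.4 in B6AF1. Its log2 difference of 0.24 had a limma 95% interval from -0.36 to 0.85 (limma adjusted p = 0.794) and was -0.018 without AB6F1 replicate 1. The interval ends well below the 2.98 of Saa2. Saa4 had signals of 19264 and 14126 in AB6F1, against 15196 and 17129 in B6AF1 on its brighter probe set, a log2 difference of 0.03 with an interval from -0.36 to 0.43. Its other probe set had 4566 and 4384 in AB6F1, against 4213 and 6490 in B6AF1, at -0.22 ± 0.20 (SE), and the sign of Saa4 was negative after centring each array on its median (-0.10). The Saa3 and Saa4 windows each shared 46.8% to 52.4% of aligned columns with those of the other Saa genes. Both held C/EBP matches, and Saa3 also held an NF-kappa-B match from -187 to -179.

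Genes flanking the Saa cluster, named here for their position after their values were seen, had log2 differences of 0.11 ± 0.21 (Saal1) and 0.96 ± 0.42 (Hps5; SE, n = 2 in each cross), with limma adjusted p of 0.884 and 0.524. The Hps5 signals of 159.3 and 126.2 in AB6F1, against 85.5 and 62.2 in B6AF1 were low.

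The 3 orosomucoid genes lie next to each other on chromosome 4, in the order Orm1, Orm3 and Orm2, and had unlike differences between the crosses. The windows of Orm2 and Orm3, the members with the larger differences, are shown because they share most of their letters, with capitals as above.
Orm2, GRCm38.p6 chr4:63362199-63362448 (plus strand): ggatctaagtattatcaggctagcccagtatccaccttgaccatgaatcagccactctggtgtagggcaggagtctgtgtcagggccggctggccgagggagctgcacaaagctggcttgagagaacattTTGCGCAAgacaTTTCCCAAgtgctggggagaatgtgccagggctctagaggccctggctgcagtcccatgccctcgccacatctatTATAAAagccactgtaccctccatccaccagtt
Orm3, GRCm38.p6 chr4:63355908-63356157 (plus strand): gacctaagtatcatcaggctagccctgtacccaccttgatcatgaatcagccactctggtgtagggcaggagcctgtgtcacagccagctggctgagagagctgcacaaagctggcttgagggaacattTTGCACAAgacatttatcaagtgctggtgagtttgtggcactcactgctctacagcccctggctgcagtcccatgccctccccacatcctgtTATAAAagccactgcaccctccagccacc

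They were identical in 219 of 255 aligned columns, or 85.9%. Both hold a C/EBP match at nearly the same place, TTGCGCAA from -120 to -113 in Orm2 and TTGCACAA from -121 to -114 in Orm3, and both hold a TATA match, found in 12.4% of all windows. Orm2 holds a second C/EBP match from -108 to -101, which Orm3 lacks.

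Orm2 had signals of 12073 and 2376 in AB6F1, against 691.2 and 1112 in B6AF1. Both AB6F1 arrays were higher, but AB6F1 replicate 1 was 5.08 times replicate 2, a gap larger than for 99.4% of tested genes. The log2 difference was 2.61 ± 0.67 (SE, n = 2 in each cross; limma adjusted p = 0.301). When each array was left out in turn, the log2 difference ranged from 1.44 (AB6F1 replicate 1 omitted) to 3.78 (AB6F1 replicate 2 omitted).

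Orm3 had signals of 827.1 and 408.6 in AB6F1, against 131.7 and 187.9 in B6AF1. The arrays of the crosses again did not overlap, and the log2 difference was 1.89 ± 0.37 (SE, n = 2 in each cross; limma adjusted p = 0.180). With each array left out in turn, it ranged from 1.38 (AB6F1 replicate 1 omitted) to 2.39 (AB6F1 replicate 2 omitted).

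Orm1 had signals of 34850 and 24459 in AB6F1, against 23567 and 23147 in B6AF1. The lower AB6F1 array stood only 1.04 times above the higher B6AF1 array. Orm1 was brighter than 98.9% of tested genes, against 81.0% for Orm2 and 37.7% for Orm3. Whether differences are narrowed at such bright signals was not tested. The log2 difference of 0.32 had a limma 95% interval from -0.09 to 0.74 (limma adjusted p = 0.609), below the lower ends of the intervals of Orm2 (1.04) and Orm3 (1.02). Without AB6F1 replicate 1 it was 0.07. Genes flanking the cluster were at -0.18 ± 0.19 (Col27a1) and 0.37 ± 0.53 (Akna; SE), with limma adjusted p of 0.793 and 0.855.

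Lcn2, the siderophore-binding lipocalin, had the widest range of the 10 genes. Its upstream window on chromosome 2 is shown because it had the largest log2 difference of the 10.
Lcn2, GRCm38.p6 chr2:32387740-32387989 (minus strand): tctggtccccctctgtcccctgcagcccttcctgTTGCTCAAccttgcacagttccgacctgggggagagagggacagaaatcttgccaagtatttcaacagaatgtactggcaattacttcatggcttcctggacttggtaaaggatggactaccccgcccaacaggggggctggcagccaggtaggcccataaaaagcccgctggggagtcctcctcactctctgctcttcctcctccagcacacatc

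The window holds 1 C/EBP match, TTGCTCAA from -216 to -209, and no match to the other motifs. The Lcn2 signals were 6539 and 1107 in AB6F1, against 158.1 and 496.7 in B6AF1. All AB6F1 values were higher, yet the mice differed 5.91-fold within AB6F1 and 3.14-fold within B6AF1. These gaps were larger than for 99.6% and 98.4% of tested genes. The log2 difference of 3.26 ± 0.83 (SE, n = 2 in each cross) ranked eighth in size among the 11749 genes and did not pass (limma adjusted p = 0.299). It ran from 1.98 without AB6F1 replicate 1 to 4.54 without AB6F1 replicate 2.

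Hp had signals of 36634 and 30394 in AB6F1, against 30793 and 37910 in B6AF1. The difference between mice of the same cross exceeded that between crosses, and the log2 difference of -0.03 had a limma 95% interval from -0.40 to 0.33. Hpx had signals of 39066 and 34869 in AB6F1, against 36186 and 41718 in B6AF1, a log2 difference of -0.07 with an interval from -0.38 to 0.24. After quantile normalization both signs turned positive, at 0.049 for Hp and 0.029 for Hpx. The limma adjusted p was 0.959 for Hp and 0.879 for Hpx. Hp was brighter than 99.4% and Hpx than 99.6% of tested genes, and a narrowing of differences at such signals was not tested.

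**Figure D2:**
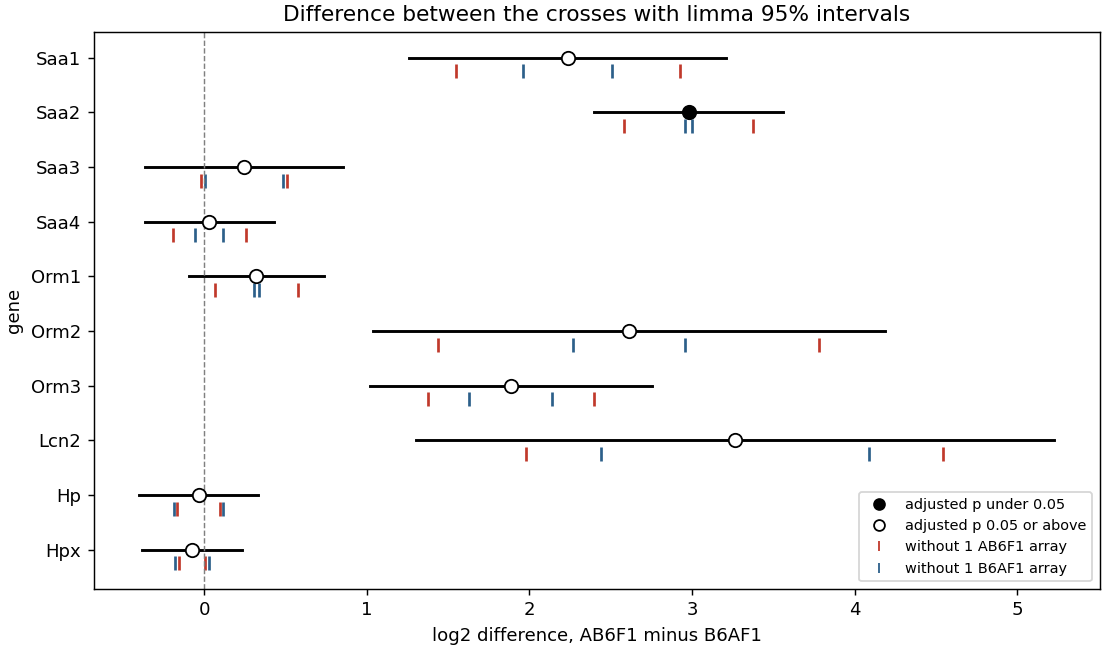
Log2 difference of each gene, AB6F1 minus B6AF1 (horizontal axis), with limma 95% intervals as bars; filled circles have a limma adjusted p under 0.05. Short marks give the difference without 1 AB6F1 array (red) or without 1 B6AF1 array (blue): for Lcn2 and Orm2 the red marks lie farthest apart, from 1.98 to 4.54 and from 1.44 to 3.78, whereas Saa2 stays between 2.58 and 3.38.

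The spread within a cross followed a common order. Saa1, Saa2, Orm2, Orm3 and Lcn2 were each highest in AB6F1 replicate 1, then AB6F1 replicate 2, then B6AF1 replicate 2, and lowest in B6AF1 replicate 1. This order held for 5 of the 10 genes and for 6.05% of all tested genes. It includes both AB6F1 arrays lying above both B6AF1 arrays, by which these 5 genes were grouped. Among genes with that separation, it held for 5 of 6 members and for 711 of 2646 tested genes. These counts describe the genes and are not tested. All 10 genes were higher in AB6F1 replicate 1 than in AB6F1 replicate 2, as were 53.5% of tested genes, and 9 of 10 were higher in B6AF1 replicate 2 than in B6AF1 replicate 1, as were 51.5%. Orm1 was the exception, at 23147 in B6AF1 replicate 2 and 23567 in B6AF1 replicate 1. Saa2 had the smallest gap among the 5, at 1.73-fold within AB6F1 and 1.03-fold within B6AF1.

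**Figure D3:**
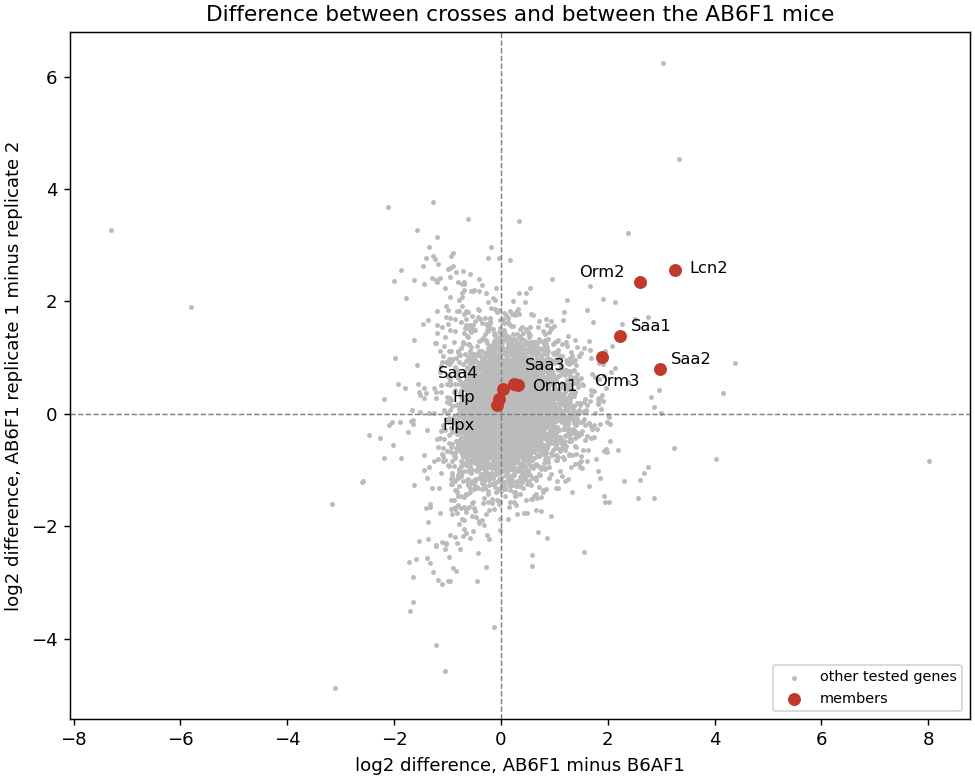
Each point is a tested gene, with its log2 difference AB6F1 minus B6AF1 on the horizontal axis and the log2 difference of AB6F1 replicate 1 minus AB6F1 replicate 2 on the vertical axis; the 10 genes are in red and the other tested genes in grey. Lcn2 and Orm2 lie far out on both axes, at 3.26 and 2.61 between crosses and 2.56 and 2.35 between the AB6F1 mice, while Saa2 is at 2.98 and 0.79.

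Genes whose log2 signal, centred over the 4 arrays, was closest to each of these 5 included other members. Closeness was measured as the root mean square difference over the 4 arrays, in log2 units. The closest to Orm2 among all tested genes were Saa1 (0.39), Lcn2 (0.48) and Mt2 (0.49), against a median of 1.56 over all genes. The closest to Lcn2 were Mt2 (0.40), which encodes a metallothionein, Orm2 (0.48) and Crybb3 (0.53), a lens crystallin gene, against a median of 1.95.

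The closest to Saa1 were Orm3 (0.22), Elapor1 (0.22) and Tbxas1 (0.24), thromboxane A synthase, against a median of 1.23. The closest to Orm3 were Gadd45g (0.13), a stress-inducible growth arrest gene, Tbxas1 (0.17) and Cd207 (0.17), the gene of langerin, against a median of 1.03. The closest to Saa2 were Fxyd4 (0.15), a regulator of the sodium pump, Rad51b (0.25), a homologous recombination gene, and Pls1 (0.36), an actin-bundling plastin, against a median of 1.51. With 4 arrays many genes can come close by any one order, and 5 of the 13 named, Tbxas1, Fxyd4, Pls1, Cd207 and Crybb3, had a mean log2 signal in B6AF1 below that of the filter, a signal of 60.9.

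Among 22 tested genes of the cytokine receptors, signal transducers and transcription factors that drive the response, 1 passed, higher, and none passed lower; at an unadjusted limma p under 0.05 there were 3 higher and 3 lower. The median log2 difference was 0.15. For this list and those that follow, the share of all tested genes that passed was 0.213%. At an unadjusted limma p under 0.05 the share was 9.72% in either direction and 5.84% higher. Socs3, the feedback inhibitor that STAT3 induces, rose 3.24-fold, with signals of 962.2 and 1161 in AB6F1, against 296.2 and 358.7 in B6AF1 (limma adjusted p = 0.0262). It was read by a probe set of suffix _x_at, and without such probe sets its log2 difference was 1.04 (limma adjusted p = 0.420). The call was also lost with the mean of its probe sets (0.187), without the intensity trend (0.352) and without B6AF1 replicate 1 (0.329) or B6AF1 replicate 2 (0.260). Unlike Saa1, Orm2 and Lcn2, Socs3 was higher in AB6F1 replicate 2 than in AB6F1 replicate 1.

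Lifr, a receptor for leukaemia inhibitory factor, had signals of 4452 and 2660 in AB6F1, against 6648 and 8543 in B6AF1, at -1.13 ± 0.25 (log2 difference, SE; limma adjusted p = 0.225). Il1rap, the interleukin-1 receptor accessory protein, was at -0.36 ± 0.11 and Creb3l3, a membrane-bound hepatic transcription factor, at -0.39 ± 0.12, with limma adjusted p of 0.382 and 0.384. Atf3, a stress-induced factor, was at 1.96 ± 0.60 (limma adjusted p = 0.384). Its AB6F1 signals, 185.3 and 551.3, differed widely, and those of B6AF1 were 54.4 and 124.3.

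The list of other positive acute-phase proteins was drawn up broadly and had 26 tested genes. Of these, 1 passed, higher, and none passed lower, with a median log2 difference of 0.06. At an unadjusted limma p under 0.05 there were 5 higher and 0 lower. The gene that passed was Vnn1, a pantetheinase, which rose 2.31-fold, with signals of 8503 and 8762 in AB6F1, against 3448 and 4045 in B6AF1 (limma adjusted p = 0.0226). The call was lost with the mean of its probe sets (limma adjusted p = 0.052), without the intensity trend (0.365) and without B6AF1 replicate 1 (0.330) or B6AF1 replicate 2 (0.242). Vnn1 is also known as a target of the lipid sensor PPAR-alpha. The metallothionein Mt2 had signals of 5413 and 1632 in AB6F1, against 227.5 and 863.2 in B6AF1, the same order of mice as Lcn2, at 2.75 ± 0.71 (log2 difference, SE; limma adjusted p = 0.309). Its relative Mt1 was at 2.14 ± 0.80, the metalloreductase Steap4 at 1.01 ± 0.20 and Tnfaip2 at 0.49 ± 0.16, with limma adjusted p from 0.204 to 0.467. The remaining tested members of this list had log2 differences from -0.22 for Crp, C-reactive protein, to 0.94 for Fgl1, a fibrinogen-like protein, and none of them passed by limma.

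Of 13 tested proteins that usually decrease in the acute phase, none passed by limma, with 2 higher and 1 lower at an unadjusted p under 0.05 and a median log2 difference of -0.07. Serpina7, thyroxine-binding globulin, had signals of 6086 and 4579 in AB6F1, against 2557 and 960.6 in B6AF1, at 1.75 ± 0.41. Serpina6, corticosteroid-binding globulin, was at 0.61 ± 0.25, Apoa4 at 0.51 ± 0.30, Paqr9 at 0.29 ± 0.18 and Igf1 at -0.32 ± 0.11 (log2 differences, SE), with limma adjusted p of all 5 from 0.257 to 0.653.

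Of 13 tested binding partners and clearance receptors, none passed by limma, with 2 higher and 2 lower at an unadjusted p under 0.05 and a median log2 difference of -0.06. Cd163, the macrophage receptor for haptoglobin and haemoglobin, had signals of 194.9 and 219.3 in AB6F1, against 359.1 and 389.2 in B6AF1, at -0.85 ± 0.22 (limma adjusted p = 0.299). Hmox1, haem oxygenase, was at 1.03 ± 0.30 and Blvrb, biliverdin reductase B, at -0.24 ± 0.12. Cd36 and Scarb1, scavenger receptors that also bind serum amyloid A, were at 0.72 ± 0.13 and -0.41 ± 0.16 (log2 differences, SE), and their limma adjusted p were 0.154 and 0.482.

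**Figure D4:**
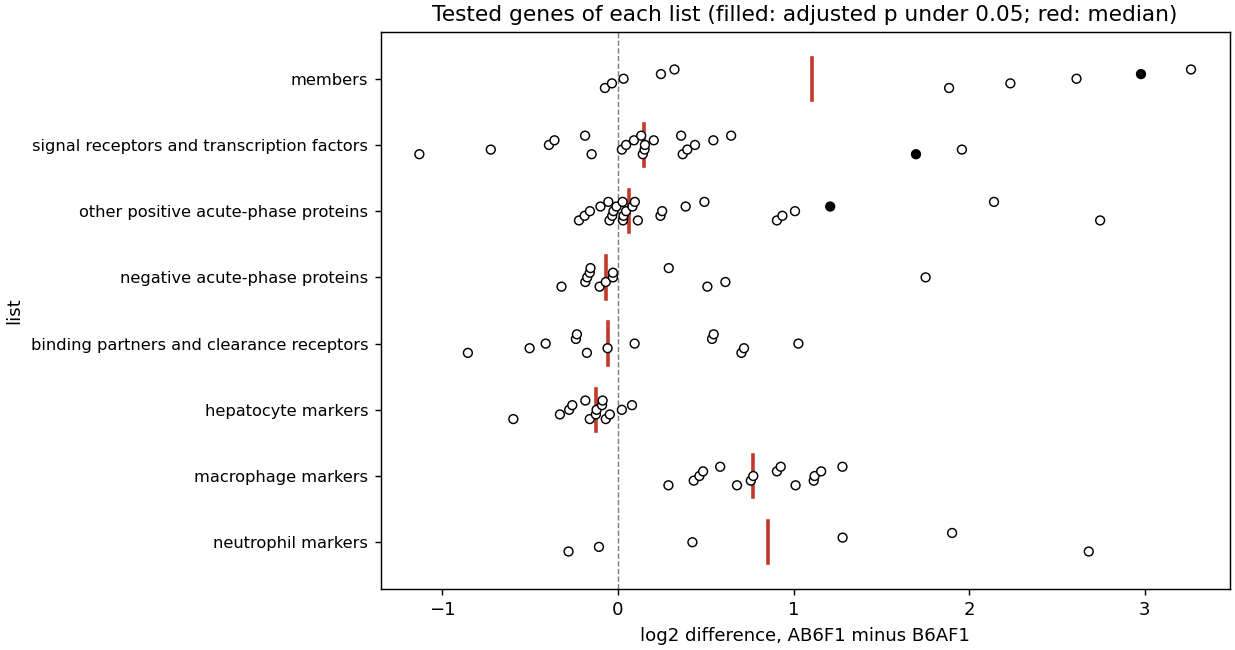
Log2 difference, AB6F1 minus B6AF1, of each tested gene (points) in the 10 members, 4 lists of acute-phase genes and 3 lists of cell type markers (rows); filled points have a limma adjusted p under 0.05 and red bars are medians. The medians are 1.10 for the members, between -0.07 and 0.15 for the 4 acute-phase lists, -0.12 for hepatocyte markers, 0.77 for macrophage markers and 0.85 for neutrophil markers, which is 0.12 with no filter on low signals.

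Markers of macrophages and neutrophils, which can also make serum amyloid A3 and lipocalin 2, had mostly positive log2 differences. All 15 tested macrophage markers of 18 had positive log2 differences, with a median of 0.77. None passed by limma and 10 had an unadjusted p under 0.05. Of all tested genes, 53.5% had a log2 difference above 0. An unadjusted limma p under 0.05 was found for 9.72% of all tested genes in either direction and 5.84% higher. The summed signal of the macrophage markers was 22662 and 13995 in AB6F1, against 9370 and 12588 in B6AF1, the same order of mice as for Saa1 and Lcn2. One by one, 8 of the 15 kept that order, against 6.05% of all tested genes. Both AB6F1 arrays lay above both B6AF1 arrays for 10 of the 15, against 22.5% of all tested genes. Not all macrophage genes were higher: Cd163, counted above among the receptors, was at -0.85, and Timd4, a Kupffer cell marker below the filter, had 41.5 and 34 in AB6F1, against 66.2 and 115.9 in B6AF1. Of the 13 neutrophil markers 6 were tested, with a median of 0.85 and 4 higher, none passing by limma and 2 with an unadjusted p under 0.05. That median was 0.12 with no filter on low signals and 0.30 without B6AF1 replicate 2. The summed neutrophil signal was 1602 and 690.7 in AB6F1, against 677.3 and 389.6 in B6AF1. Unlike for Saa1 and Lcn2, B6AF1 replicate 1 was above B6AF1 replicate 2, and 0 of the 6 kept the order of those genes. S100a8 and S100a9, which make up neutrophil calprotectin, were the 2 with an unadjusted limma p under 0.05. In the AB6F1 mice S100a8 had 601.9 and 120.7 and S100a9 had 404.8 and 97.9. In the B6AF1 mice S100a8 had 76.8 and 23 and S100a9 had 69.8 and 40.6. Their mean log2 signals in B6AF1 lay below that of the filter, a signal of 60.9, so they were tested only through their AB6F1 signals. The granule genes Ltf, Camp, Mmp8 and Mmp9 were below the filter, and of the tested markers Mpo and Ngp had negative log2 differences (-0.28 and -0.11). The 14 hepatocyte markers had a median of -0.12, with 12 negative, none passing by limma and 1 at an unadjusted p under 0.05, and summed signals of 443428 and 434724 in AB6F1, against 461765 and 520335 in B6AF1. The part of these cells in the differences of Lcn2, Saa1 or Orm2 was not tested.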

How the data were processed

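The values used were the intensity of every probe set as deposited, on a linear scale; the submitters' processing notes name MAS5, whose version was not given in the sources used here. No scanner file or detection call was used. The trimmed means of the arrays, without the lowest and highest 2% of probe sets, lay between 498.8 and 499.8, so each array had been scaled to 1 level and a shift common to all transcripts is invisible. The annotation assigned 1 symbol to 34945 probe sets, several to 932 and no symbol to 9160, apart from 64 controls, and 34741 symbols were updated through RefSeq (GRCm38.p6).

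The brightest probe set stood for each of 18193 genes, and genes below the median mean log2 signal of all probe sets (60.9) were left out. The 11749 others were fitted on log2 signal, with no value added, using limma 3.58.1 under R 4.3.3 (lmFit, eBayes with an intensity trend; prior degrees of freedom 4.97, residual 2), two-sided, with Benjamini-Hochberg adjustment over all tested genes and a threshold of 0.05. SE and intervals are limma's moderated ones, and folds are powers of the log2 difference. The labels call the mice biological replicates. The p-values rest on the spread between these mice, moderated towards that of tested genes of similar signal.

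Members and lists were chosen with earlier results of these data known, and motif letters after the promoter windows had been seen, with 4 forms tried for NF-kappa-B and 2 for HNF1. Genes were named by rule: all members, for each pathway list the 5 genes or fewer with the smallest p, and the 3 closest profiles of each member that spanned at least 1 on the log2 scale. Crp, Stat3, Fgl1, Itih3, Fetub, the flanking genes and single cell type markers were named after their values were seen. On simulated data of the 11749 genes in this comparison, the fit recovered 47.6% of changes of 2-fold, 81.3% of 4-fold and 87.6% of 8-fold size over 10 runs of 200 changed genes each. In the data 25 genes passed, and Orm2 and Lcn2 varied more between AB6F1 mice than 99.4% and 99.6% of tested genes. These rates need not hold for such genes. Mice of the same number in the 2 crosses deviated together with a correlation across genes of -0.03, so the numbers were not taken to pair mice. Alternatives were other normalizations, 16 added to the signal, other filters and probe set rules, other variance moderation, the replicate block and each array left out.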

Additional observations from a re-analysis of the deposited data

How the results depend on the processing

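Genes past the threshold over all genes numbered 25 and were 49 after centring each array on its median, 9 with the mean of all probe sets of a gene, 0 without the intensity trend (1044 at an unadjusted limma p under 0.05), 62 with the replicate block, and 1 to 242 when 1 array was left out. The members past it numbered 1 (Saa2) and were 0 when the _x_at and _s_at probe sets were dropped, since Saa2 then has no probe set, 0 without the trend (5 at an unadjusted p under 0.05), 2 with the replicate block (Saa1 and Saa2), and 0 to 5 when 1 array was left out. Of the 2 genes past it in the pathway lists, 1 remained without those suffixes, 0 with the mean of probe sets and 0 without the trend, and 0 to 8 genes passed when 1 array was left out; the cause was not tested. Leaving out AB6F1 replicate 2 gave the highest counts, and 2.06% of all tested genes then passed, with a lone AB6F1 array assumed to vary like the B6AF1 pair. Without B6AF1 replicate 1 or B6AF1 replicate 2, 1 gene and no member passed.

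Saa1, Saa2, Orm1, Orm2, Orm3 and Lcn2 kept a positive difference under every alternative that gave a value. Signs turned, all near 0, for Hp and Hpx after quantile normalization (0.049 and 0.029), for Saa4 after centring (-0.10) and with the mean of probe sets (-0.10), and when 1 array was left out, where Saa3 ran from -0.018 to 0.51, Saa4 from -0.19 to 0.26, Hp from -0.18 to 0.12 and Hpx from -0.18 to 0.028. Centring moved the median of all tested genes by -0.14 on the log2 scale, to -0.11, and 57.1% of the genes past the threshold were then higher in AB6F1 in place of 64%. List medians near 0 turned as well: the positive acute-phase list to -0.07 after centring, -0.14 without AB6F1 replicate 1 and -0.022 without B6AF1 replicate 1, the receptors and factors to -0.09 without AB6F1 replicate 1, the binding partners to 0.017 with 16 added, 0.11 with no filter and 0.21 without AB6F1 replicate 2, and the negative list to 0.0089 without AB6F1 replicate 2 and 0.03 without B6AF1 replicate 2. No call is possible for Orm3 with the filter at the 75th percentile, which it fails. The replicate block changed no other member's call than that of Saa1 (limma adjusted p = 0.0322). A block that crosses the numbers, chosen after seeing the data, gave 89 genes, 5 members (Saa1, Saa2, Orm2, Orm3 and Lcn2) and 6 genes of the pathway lists past the threshold; neither pairing comes from the labels.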

Other observations

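Markers of other liver cell types gave further values, and their part in the differences of the 10 genes was not tested. Of 12 tested stellate cell and fibrosis markers 10 had positive log2 differences, with a median of 0.70, and 2 passed, both higher. Hand2 and Des were negative, at -0.33 and -0.22. The largest difference, 3.24 for Col1a1, came with signals of 96.6 and 16.7 in B6AF1. Their mean log2 lay below that of the filter, so Col1a1 was tested only through its AB6F1 signals. Of all tested genes, 53.5% had a positive log2 difference and 0.136% passed higher. Col3a1, a collagen III chain, rose 3.50-fold, with signals of 3773 and 4532 in AB6F1, against 1306 and 1066 in B6AF1 (limma adjusted p = 0.00931). Col1a2, a collagen I chain, rose 2.59-fold, with signals of 793.9 and 768.5 in AB6F1, against 308.8 and 294.4 in B6AF1 (limma adjusted p = 0.0402). Without B6AF1 replicate 1 the limma adjusted p was 0.159 for Col3a1 and 0.339 for Col1a2, and without B6AF1 replicate 2 it was 0.226 and 0.511. With the mean of all probe sets of a gene the log2 differences were 1.40 (0.187) and 0.03 (0.987), without the intensity trend the limma adjusted p were 0.352 and 0.324, and Col1a2 was also lost after quantile normalization (0.0523). The summed stellate signal was highest in AB6F1 replicate 2 (18087), against 15002 in AB6F1 replicate 1 and 11602 and 10897 in B6AF1. The 9 tested endothelial markers had a median log2 difference of -0.0046. The 3 tested adipocyte markers of 8 had a median of 0.64, with Adipoq, Lep and Retn below the filter. The 5 tested cholangiocyte markers of 8 had a median of 0.42. Over the alternatives that median ran from 0.046 with the filter at the 75th percentile to 0.58 without AB6F1 replicate 1.

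The transducer Stat3 had signals of 7756 and 3740 in AB6F1, against 3407 and 4634 in B6AF1. The acute-phase proteins Fgl1 (31957 and 10222 in AB6F1, against 6969 and 12798 in B6AF1) and Itih3 (26700 and 11878 in AB6F1, against 15448 and 20771 in B6AF1) were likewise highest in AB6F1 replicate 1 and lower in AB6F1 replicate 2 than in B6AF1 replicate 2. Fetub, from the negative list, had the same order (26820 and 11206 in AB6F1, against 16353 and 19112 in B6AF1). The share of all tested genes with this order was not counted.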
